A study of Mus musculus with 4 samples.

Results

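The smooth muscle contractile genes are 10 mouse genes, Acta2, Actg2, Cnn1, Tagln, Cald1, Tpm1, Tpm2, Lmod1, Myl9 and Myh11, out of 24346 genes listed in an expression table of mBMSCs, which are mesenchymal stem/progenitor cells grown from bone marrow. The members were found by their gene symbols, and each symbol occurred once. They were selected on the comparison described here, since the strong reduction of Cnn1, Actg2, Tagln and Acta2 was among the reasons for the choice. Their differences between the groups are therefore given as a description, with no test.

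The cells came from the femoral marrow of wild-type mice aged 3 months, of the strain C57BL/6 in the labels and C57BL/6J in the study's methods, and no allele was altered in either group. After 3 days in culture the nonadherent blood cells were washed off, and the colonies that grew were passaged. Of 4 RNA-seq samples, 2 were transfected with a scrambled siRNA (siScr) and 2 with siRNA against Zbp1 (siZBP1), and all 4 received the same lipid reagent. RNA was taken at 72 h. ZBP1 is a sensor of nucleic acids in the Z conformation, and the study asked how its loss alters the fate of these cells. Which of the designed siRNAs the 2 siZBP1 samples received is not stated in the sources used here, nor whether replicates came from separate mice or cultures, so the spread between replicates may be technical.

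Smooth muscle, the mural cells of vessels and activated fibroblasts share a contractile apparatus built of actin filaments and myosin II. Thin filaments of smooth muscle actin carry tropomyosin, calponin and caldesmon, and myosin is switched on when a kinase phosphorylates its regulatory light chain. Many of these genes are controlled by serum response factor (SRF), which binds a short motif called the CArG box together with myocardin or the related cofactors MKL1 and MKL2. Cultured marrow stromal cells are known to express several of these genes.

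The CArG box is the letter pattern by which SRF recognises its targets, so its matches near the members' start sites are shown first. It has 10 letters, a pair of C, 6 inner letters that are each A or T, and a pair of G, and it reads the same on both strands. RefSeq promoters on the GRCm38.p6 build, from 250 bases before to 50 bases after the start, were matched for 7 of the 10 members in 8 windows, with 2 windows for Cald1. Promoters of Actg2, Tagln and Myh11 were not matched. The matches found, with 1 mismatch allowed among the inner letters, are printed 5′ to 3′ on the gene's strand in runs of 30 bases with the box in capitals.
Acta2, chr19:34255438-34255467, minus strand: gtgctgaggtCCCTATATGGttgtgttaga
Acta2, chr19:34255388-34255417, minus strand: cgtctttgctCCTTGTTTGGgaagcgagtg
Myl9, chr2:156775293-156775322, plus strand: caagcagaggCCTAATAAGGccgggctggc
Myl9, chr2:156775355-156775384, plus strand: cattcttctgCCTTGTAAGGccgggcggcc

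The boxes of Acta2 began 84 and 34 bases before the RefSeq start and each held 1 mismatch. GENCODE M21 starts its Acta2 transcript further upstream, and in that annotation both lie in exon 1. The boxes of Myl9 began 161 and 99 bases before the RefSeq start, the first exact and the second with 1 mismatch, and both lie upstream of the gene in GENCODE. An exact box was thus present in 1 of 8 member windows, beside 1.63% of all 32851 promoter windows, and a box with up to 1 mismatch in 2 of 8, beside 9.98%. Among the 52 windows of 43 genes from the members' protein families and of other smooth muscle genes, 7 held an exact box. The windows of Cnn1, Lmod1, Tpm1, Tpm2 and Cald1 held none of these letters, which says nothing of sites elsewhere in those genes.

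Values are FPKM, the fragments of a gene scaled for the length of its transcripts and the size of the library, so levels of different genes may be set side by side. Read counts were not given, and the spacing of the lowest values corresponded to about 14100000 and 19100000 fragments in the siScr replicates and 10400000 and 17200000 in the siZBP1 replicates. Zbp1 itself was at 86.0 and 62.0 FPKM in siScr cells and at 11.5 and 11.6 FPKM in siZBP1 cells (limma log2 fold change -2.56 ± 0.16 (SE), adjusted p = 0.00322). Without siZBP1 replicate 1 or 2 the adjusted p of Zbp1 was 0.0618 or 0.051 at nearly the same fold change. Of 11959 genes with a mean of at least 1 FPKM, limma on log2(FPKM + 1) called 14.8% lower and 13.5% higher after siZBP1 at an adjusted p of 0.05. These calls leaned on the number of siZBP1 samples, as 48 genes were called lower and 22 higher without siZBP1 replicate 1, and 113 and 32 without replicate 2. Without siScr replicate 1 they were 938 and 713. Of 39 genes named from the lists below as called with all samples, 5 and 8 were called without siZBP1 replicate 1 and 2.

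Markers of blood cells were also present. All 10 macrophage markers were detected, with Lyz2, the lysozyme of myeloid cells, at 2814 to 5871 FPKM and Ptprc, the pan-leukocyte antigen CD45, at 76.6 to 88.0 FPKM. The summed level of the 10 was 6469 and 7419 FPKM in siScr cells and 10961 and 10365 FPKM in siZBP1 cells, higher in both siZBP1 samples. Limma called 7 of the 10 higher and none lower with all 4 samples, among them Lyz2 and the mannose receptor gene Mrc1, at 42.7 ± 8.71 and 102.1 ± 0.792 FPKM (SD, n = 2, limma adjusted p = 0.00789). None was called with either siZBP1 replicate left out, and Lyz2 was also lost after quantile normalization. In bulk RNA, fewer contractile cells and less contractile RNA per cell cannot be told apart, and the part of the macrophage difference in the values below was not tested.

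Together the 10 genes made up 1997 and 2024 FPKM in the siScr replicates and 664 and 717 FPKM in the siZBP1 replicates. These sums were 0.406% and 0.423% of all FPKM in siScr cells and 0.138% and 0.1497% in siZBP1 cells. All 10 were lower in both siZBP1 samples than in either siScr sample, 9 of them by more than 1.5-fold in the ratio of group means. The median log2 ratio of the members was -2.44, against 0.0052 for 11859 genes. These were the genes of at least 1 FPKM with a mean above 0 in both groups. Of all 11959 genes of at least 1 FPKM, 9.19% were over 1.5-fold lower and 33.7% had both siZBP1 values below both siScr values. Among the members that reached 1 FPKM, 9 of 10, the counts were 8 and 9. Because the comparison chose the genes, nothing is read from these counts beside the background.

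**Figure D1:**
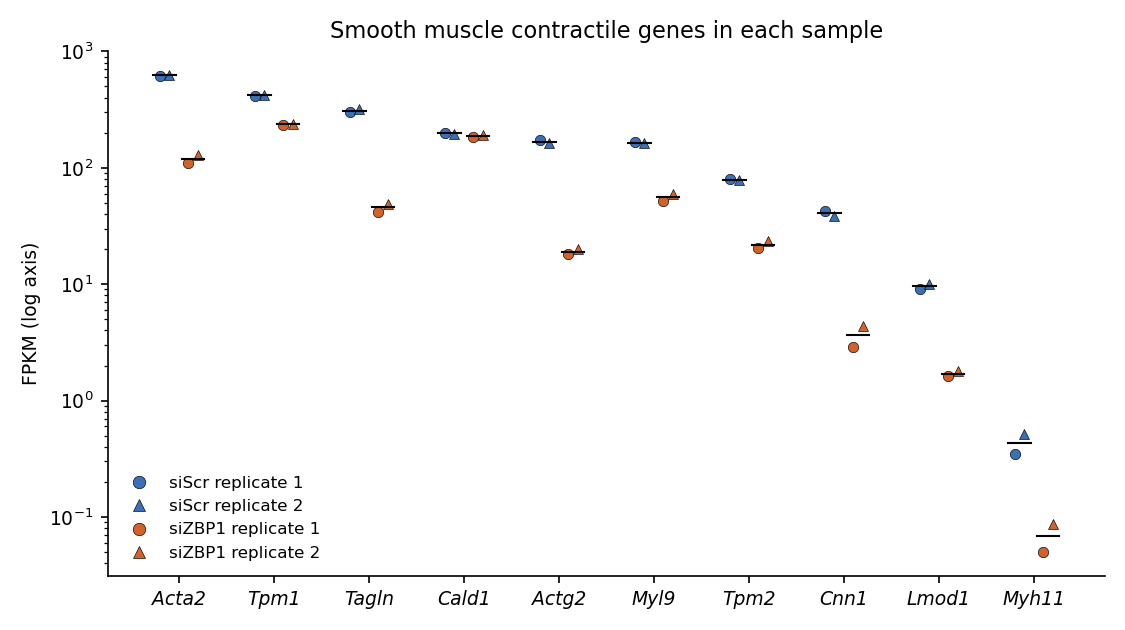
FPKM of each contractile gene on a log axis, with 1 point per sample and a short line at the mean of each group (siScr and siZBP1, n = 2 each). The siZBP1 points lie below the siScr points for all 10 genes, most widely for Cnn1 and least for Cald1, and the replicates of a group nearly coincide except for Myh11 and for Cnn1 in siZBP1 cells.

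The thin filament of smooth muscle is built of 2 actins, Acta2 of vascular and Actg2 of visceral muscle. Acta2 (ENSMUSG00000035783.9, chr19:34241090-34255590, minus strand, GRCm38) was at 614 and 631 FPKM in the siScr replicates and at 110 and 129 FPKM in the siZBP1 replicates. It was the most abundant member in siScr cells, and the siZBP1 values were far below, with the group means of 623 ± 12.4 and 119.6 ± 13.0 FPKM (SD, n = 2) differing 5.20-fold. Actg2 (ENSMUSG00000059430.14, chr6:83512905-83536265, minus strand) was at 171.5 and 163 FPKM in siScr cells and at 18.0 and 19.99 FPKM in siZBP1 cells. Both siZBP1 samples were low to nearly the same level, 8.81-fold under the siScr mean. The reduction was unequal for the 2 actins, and the ratio of Acta2 to Actg2 was 3.58 and 3.86 in siScr cells and 6.12 and 6.44 in siZBP1 cells.

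Calponin, transgelin and caldesmon bind along the actin filament, and leiomodin nucleates new filaments. Cnn1, the smooth muscle calponin (ENSMUSG00000001349.5, chr9:22099216-22109630, plus strand), was at 42.6 and 38.8 FPKM in siScr cells and at 2.86 and 4.39 FPKM in siZBP1 cells. Its groups were the furthest apart of all 10 genes, at 11.2-fold, although its siZBP1 replicates differed from each other by 1.54-fold. Tagln, also called SM22 (ENSMUSG00000032085.5, chr9:45929619-45936058, minus strand), was at 299.7 and 317 FPKM in siScr cells and at 42.0 and 49.1 FPKM in siZBP1 cells. The groups were well separated, by 6.77-fold.

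Lmod1, the leiomodin of smooth muscle (ENSMUSG00000048096.7, chr1:135324807-135368065, plus strand), was expressed at a much lower level, with 9.11 and 10.03 FPKM in siScr cells and 1.61 and 1.79 FPKM in siZBP1 cells. The difference of 5.63-fold was close to that of Acta2 in spite of the low level. Cald1, which encodes caldesmon (ENSMUSG00000029761.16, chr6:34598500-34775473, plus strand), was at 199.3 and 197 FPKM in siScr cells and at 182 and 189 FPKM in siZBP1 cells. Here the groups only just separated, with a 1.07-fold difference, and Cald1 was the single member under 1.5-fold. Caldesmon has long smooth muscle and short non-muscle forms, and GENCODE lists 18 Cald1 transcripts, which 1 value per gene does not resolve.

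Tropomyosins lie along the actin helix and govern the access of myosin. Tpm1 (ENSMUSG00000032366.15, chr9:67022590-67049406, minus strand) was at 413 and 425 FPKM in siScr cells and at 235 and 239.7 FPKM in siZBP1 cells. It remained abundant in both groups and was the highest member in siZBP1 cells, 1.77-fold under the siScr mean. Tpm2 (ENSMUSG00000028464.16, chr4:43514711-43523765, minus strand) was at 80.4 and 78.1 FPKM in siScr cells and at 20.2 and 23.3 FPKM in siZBP1 cells. Tpm2 was thus 3.64-fold lower, and the ratio of Tpm1 to Tpm2 was 5.14 and 5.45 in siScr cells and 11.6 and 10.3 in siZBP1 cells. Tpm1 has 21 GENCODE transcripts and makes both muscle and non-muscle tropomyosins, which these values do not separate.

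Myosin II of smooth muscle consists of the heavy chain Myh11 and light chains, of which Myl9 is the regulatory light chain. Myl9 (ENSMUSG00000067818.6, chr2:156775420-156781658, plus strand) was at 167 and 162 FPKM in siScr cells and at 52.2 and 59.98 FPKM in siZBP1 cells. Both siZBP1 samples were at about the same low level, 2.93-fold under the siScr mean. Myh11 (ENSMUSG00000018830.10, chr16:14194535-14291372, minus strand), the marker most specific to differentiated smooth muscle, was at 0.344 and 0.516 FPKM in siScr cells and at 0.0502 and 0.0873 FPKM in siZBP1 cells. It was near absence in all 4 samples and was left out of the fit across genes. These levels correspond to about 32 and 65 fragments in siScr cells and 3 and 10 in siZBP1 cells, so its 6.26-fold ratio is the least precise of the 10.

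The label of a smooth muscle apparatus was thus borne out in part. The actins, transgelin, calponin and light chain were abundant in siScr cells, whereas Myh11, the coactivator Myocd at 0.143 to 0.249 FPKM and the muscle intermediate filament gene Des at 0.351 to 0.841 FPKM were under 1 FPKM in every sample. The markers of striated muscle were low as well, with 5 of 15 listed at 0 in all samples and a highest value of 4.84 FPKM for Tnni2, a troponin. Of the mural cell markers, Rgs5, a regulator of G protein signalling, was at 0.492 to 0.769 FPKM, while Pdgfrb, the receptor of pericytes and fibroblasts, was at 42.5 and 46.2 FPKM in siScr cells. Of 8 endothelial markers, 5 did not exceed 1.06 FPKM in any sample, among them the adhesion genes Pecam1 and Cdh5. The other 3 were higher, with Eng, a TGF-beta coreceptor that is also on the list of stromal markers, at 17.9 to 25.4 FPKM and the rest at 2.30 to 5.41 FPKM.

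In siScr cells the levels ran in the order Acta2, Tpm1, Tagln, Cald1, Actg2, Myl9, Tpm2, Cnn1, Lmod1 and Myh11. Only Actg2 and Myl9 overlapped among neighbours in that order. In siZBP1 cells the order was Tpm1, Cald1, Acta2, Myl9, Tagln, Tpm2, Actg2, Cnn1, Lmod1 and Myh11, and no neighbours overlapped. Tpm1 and Cald1, the genes with broad non-muscle use, moved above the smooth muscle actin Acta2, and Actg2 passed from the fifth to the seventh place.

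Replicates were close to each other. The higher siScr replicate exceeded the lower by 1.01 to 1.10-fold for the 9 members with a mean of at least 1 FPKM, and by 1.501-fold for Myh11. In siZBP1 cells the range over all 10 was 1.02 to 1.74-fold. All 10 members were higher in siZBP1 replicate 2 than in replicate 1, whereas 5 of 10 were higher in siScr replicate 2 than in replicate 1. Over all genes tested the shares were 49.1% and 44.7%. The members thus leaned together also within the siZBP1 group, and the cause was not tested.

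Most members have relatives that serve many cell types. The share of the smooth muscle form within its family does not depend on how a library was scaled. No share was formed for Cald1 and Lmod1. Acta2 and Actg2 made up 19.5% and 19.8% of the summed FPKM of 6 actins in siScr cells and 4.01% and 4.33% in siZBP1 cells. The cytoplasmic actins Actb and Actg1 together were at 3231 ± 14.6 FPKM in siScr cells and 3182 ± 147 FPKM in siZBP1 cells (SD, n = 2). Both siScr values lay between the siZBP1 values of 3078 and 3286 FPKM, so the groups overlapped. Counts of Actg1 are uncertain, as 56.7% of its 50-base words occur in other genes, against 0.352% for Acta2 and 0% for Actg2.

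Tagln was 56.1% and 57.9% of the transgelins in siScr cells and 19.998% and 21.6% in siZBP1 cells, so Tagln2 became the larger form. Myl9 was 39.6% and 38.5% of the regulatory light chains in siScr cells and 15.3% and 17.5% in siZBP1 cells. Cnn1 was 12.1% and 11.6% of the calponins in siScr cells and 1.55% and 2.27% in siZBP1 cells. In each of these families the smooth muscle form took a smaller part of the total in both siZBP1 samples.

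The tropomyosins differed from each other in this. Tpm1 held 40.2% and 41.0% of the 4 tropomyosins in siScr cells and 39.4% and 39.0% in siZBP1 cells, a nearly constant share of a family whose sum was 1032 ± 6.13 FPKM in siScr cells and 606 ± 13.0 FPKM in siZBP1 cells (SD, n = 2). Tpm2 held 7.82% and 7.54% in siScr cells and 3.39% and 3.78% in siZBP1 cells. Myh11 was under 0.2% of the myosin II heavy chains in all samples, and the heavy chain of these cells was therefore almost wholly of the non-muscle kind.

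**Figure D2:**
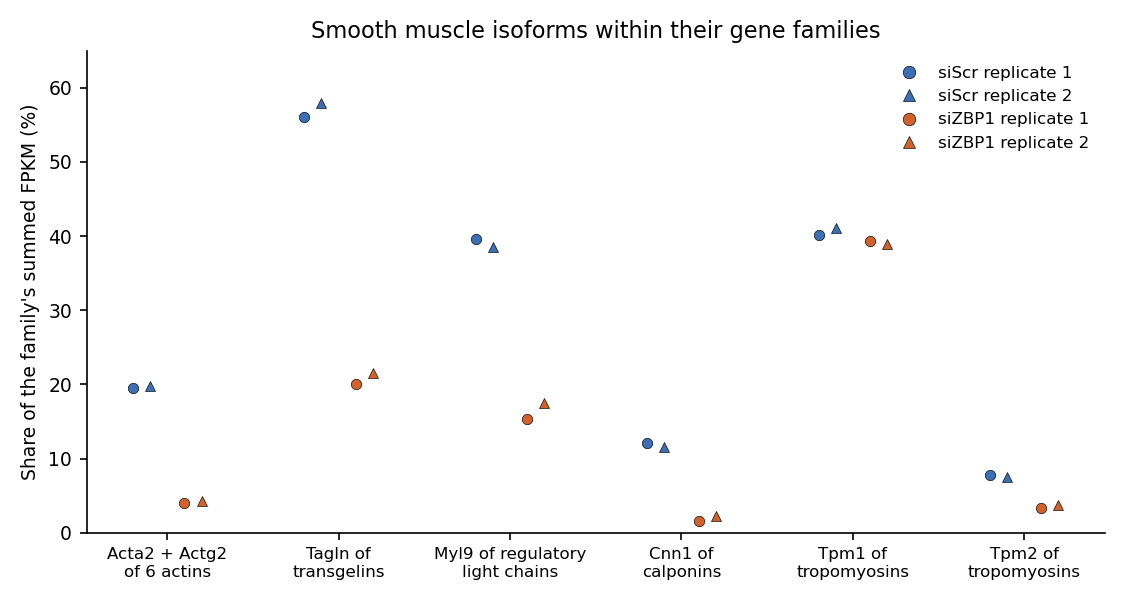
Share of each smooth muscle gene in the summed FPKM of its protein family, in percent, with 1 point per sample (siScr and siZBP1, n = 2 each). The shares of the actins, Tagln, Myl9, Cnn1 and Tpm2 are lower in both siZBP1 samples. That of Tpm1 is also lower in both, but only slightly, within 39.0% to 41.0% over the 4 samples.

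The relatives were taken by family membership and tested in the fit across all genes. Of 22 listed, 14 reached 1 FPKM, and limma called 10 lower and 1 higher after siZBP1. Their limma log2 fold changes had a median of -0.49, against 0.0045 for all genes tested. The background of 14.8% lower and 13.5% higher applies to these counts and to those of the lists below. Without siZBP1 replicate 1 or 2, 1 relative was called lower and none higher.

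The largest fall among the relatives was that of Acta1, the skeletal muscle actin, at 2.96 and 3.51 FPKM in siScr cells and 0.462 and 0.639 FPKM in siZBP1 cells (limma log2 fold change -1.45 ± 0.14 (SE), adjusted p = 0.00585). Acta1 passed the filter of 1 FPKM only through its siScr values. With a filter of 5 FPKM it was left out, and 9 of 13 relatives were called lower. Cnn2, a calponin found in many cell types, fell from 171.5 ± 4.16 to 74.0 ± 4.56 FPKM (SD, n = 2, limma log2 fold change -1.20 ± 0.06 (SE), adjusted p = 0.00231). Tpm3 and Tpm4, the other tropomyosins, fell with limma log2 fold changes of -0.67 and -0.58. Tmod3, which caps the slow end of filaments, and Myh9 and Myh10, the non-muscle myosin heavy chains, fell by 0.74, 0.56 and 0.73 on the log2 scale. Tagln2, Myl6 and Cnn3 fell by 0.42, 0.25 and 0.24, and the calls of Myl6 and Cnn3 were lost in limma without a variance trend, that of Myl6 also after quantile normalization and that of Cnn3 also without siScr replicate 1.

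Myl12b, a non-muscle regulatory light chain, was the exception and rose from 72.8 ± 4.59 to 110.8 ± 3.26 FPKM (SD, n = 2, limma log2 fold change 0.60 ± 0.06 (SE), adjusted p = 0.00608). Its close relative Myl12a was at 183.7 and 175.2 FPKM in the group means and was not called. Nor were Actb and Actg1, with limma log2 fold changes of -0.04 ± 0.06 and 0.0044 ± 0.05 (SE), signs that turned under other settings.

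Genes of adhesion, signalling and ion channels that work beside the contractile apparatus in smooth muscle were also given as a list, of which 20 of 27 reached 1 FPKM. Limma called 17 of them lower and none higher, beside 14.8% and 13.5% of all genes tested, with a median log2 fold change of -0.86. This list, like the others, was chosen with earlier results of these data known. Without siZBP1 replicate 1 and replicate 2, 3 and 5 were called lower. The largest falls were those of Mylk, the kinase that phosphorylates the regulatory light chain, and Fhl1, a LIM domain protein.

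Mylk was at 17.5 and 16.6 FPKM in siScr cells and at 2.28 and 2.24 FPKM in siZBP1 cells, a 7.55-fold ratio (limma log2 fold change -2.47 ± 0.07 (SE), adjusted p = 0.0015). Fhl1 was at 24.0 and 27.0 FPKM in siScr cells and at 3.66 and 5.54 FPKM in siZBP1 cells (limma log2 fold change -2.26 ± 0.18 (SE), adjusted p = 0.00436). Flna, the actin crosslinker filamin A and the most abundant of the list, fell from 266 ± 8.38 to 140.3 ± 6.55 FPKM (SD, n = 2, limma adjusted p = 0.00277).

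The 3 that were not called, named after their values were seen, were Ppp1r12a, Ppp1r12b and Ppp1cb, all subunits of the phosphatase that reverses the action of Mylk on the light chain. Ppp1cb, the catalytic subunit, was at 62.0 and 64.5 FPKM in siScr cells and at 60.7 and 61.7 FPKM in siZBP1 cells (limma log2 fold change -0.05 ± 0.04 (SE), adjusted p = 0.458). Ppp1r12a, the targeting subunit, was at 25.8 ± 2.53 and 23.8 ± 0.0465 FPKM (SD, n = 2, limma adjusted p = 0.347). The kinase was thus lower in siZBP1 cells with its substrate Myl9, while no difference was called for the phosphatase subunits. The difference between kinase and phosphatase was not tested.

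**Figure D3:**
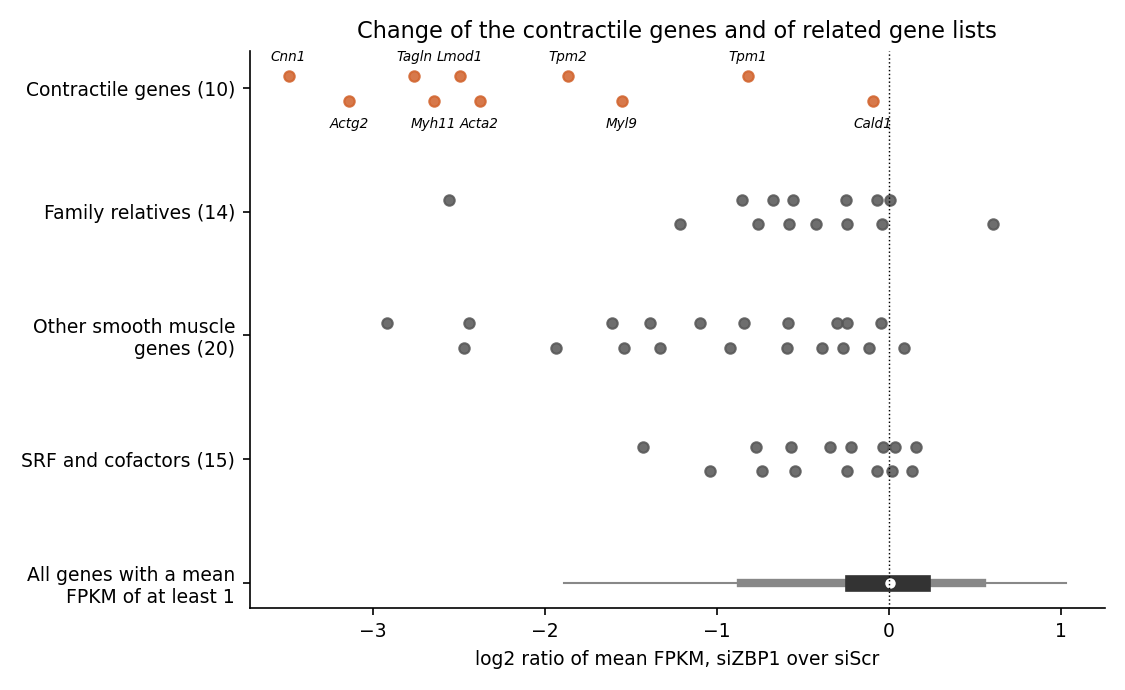
Log2 ratio of mean FPKM, siZBP1 over siScr, for each contractile gene, for genes of 3 related lists with a mean of at least 1 FPKM, and for all such genes (white dot the median, thick bar the 25th to 75th percentile, medium bar the 5th to 95th, thin line the 1st to 99th). The contractile genes run from -3.49 (Cnn1) to -0.09 (Cald1). Cnn1, Actg2, Tagln, Lmod1 and Acta2 lie below the 1st percentile at -1.89, as does Myh11, which did not reach 1 FPKM. The percentiles are those of the 11859 genes of at least 1 FPKM with a mean above 0 in both groups.

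SRF and the factors that work with it formed another list. Of 18 genes, 15 reached 1 FPKM, and limma called 7 lower and none higher, with a median log2 fold change of -0.23. None was called without siZBP1 replicate 1 or without replicate 2. Srf was at 14.5 and 13.4 FPKM in siScr cells and at 8.11 and 8.60 FPKM in siZBP1 cells (limma log2 fold change -0.67 ± 0.07 (SE), adjusted p = 0.00718). Both siZBP1 values were below both siScr values, at 1.67-fold.

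The cofactors that carry the actin signal to SRF were not called. Mkl1 was at 22.9 and 20.7 FPKM in siScr cells and at 22.4 and 20.2 FPKM in siZBP1 cells, with overlapping groups (limma log2 fold change -0.03 ± 0.08 (SE), adjusted p = 0.801). Mkl2 overlapped as well, at 11.8 ± 1.33 and 11.2 ± 0.327 FPKM (SD, n = 2, limma adjusted p = 0.678). The sign of both turned when siScr replicate 1 was left out. As their activity is set by their place in the cell, RNA levels do not report it. The other genes called lower were Klf4, Prrx1, Tead1, Csrp2, Elk1 and Mef2d, with limma log2 fold changes of -1.27, -1.002, -0.73, -0.56, -0.49 and -0.33. The call of Mef2d was also lost without siScr replicate 1, without a variance trend and with no filter on low values. Klf4 is known as a repressor of the smooth muscle program, and Tead1 is a partner of YAP.

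Immediate early genes are other targets of SRF, and 8 of those listed reached 1 FPKM. Limma called 2 lower and 1 higher, beside 14.8% and 13.5% of all genes tested, so little is read from these counts. The median limma log2 fold change of the 8 was 0.088, and it ran from -0.065 to 0.18 with each replicate left out. Egr1, a zinc finger factor induced by serum, fell from 10.9 ± 0.297 to 4.82 ± 0.524 FPKM, and Cyr61, a matrix protein also driven by YAP, from 137 ± 5.13 to 71.0 ± 0.118 FPKM (SD, n = 2, limma adjusted p = 0.00503 and 0.00231). Mcl1, a survival factor, rose from 168.9 ± 0.399 to 218.6 ± 5.47 FPKM (SD, n = 2, limma adjusted p = 0.007).

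TGF-beta is a known inducer of the contractile genes in fibroblasts. Of 14 genes of its pathway tested, limma called 7 lower and 2 higher. Without siZBP1 replicates 1 and 2, 2 and 4 were called lower and none higher. The ligand gene Tgfb3 was at 39.7 and 40.4 FPKM in siScr cells and at 7.09 and 7.78 FPKM in siZBP1 cells (limma log2 fold change -2.28 ± 0.06 (SE), adjusted p = 0.0015). Its 5.39-fold ratio was close to that of Acta2. The other ligand genes of the list, named after their values were seen, differed less between the groups. Tgfb1, the most abundant ligand, was at 109.9 ± 5.29 and 119.7 ± 0.0905 FPKM and was not called (SD, n = 2, limma adjusted p = 0.126). Tgfb2 fell 1.32-fold, from 39.8 ± 4.15 to 30.1 ± 1.04 FPKM (SD, n = 2, limma adjusted p = 0.0321). Ctgf, a pathway target and the most abundant of the list, fell 2.72-fold, from 342 ± 27.0 to 125.8 ± 9.39 FPKM (SD, n = 2). The receptor Tgfbr1 and the inhibitor Skil rose by limma log2 fold changes of 0.28 and 0.25, calls that were also lost without siScr replicate 1. The call of Skil was lost without siScr replicate 2 as well, and so with any 1 of the 4 samples left out.

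The matrix genes of myofibroblasts did not move as one. Of 12 tested, 5 were called lower and 1 higher, and none with either siZBP1 replicate left out. Col1a1, the main collagen of bone matrix, fell from 2793 ± 386 to 1160 ± 44.6 FPKM, and Cthrc1, a secreted collagen-associated protein, from 87.7 ± 23.8 to 32.8 ± 4.36 FPKM (SD, n = 2, limma adjusted p = 0.0048 and 0.014). Fn1, fibronectin, rose from 1734 ± 30.2 to 2521 ± 26.1 FPKM (SD, n = 2, limma adjusted p = 0.0053).

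The markers of the cells that could carry the contractile genes were mixed. Of 6 mural markers tested, 2 were called lower and 1 higher. Cspg4, the pericyte proteoglycan NG2, and Pdgfrb fell 2.93-fold and 1.36-fold, whereas Notch3, a receptor of mural cells, rose from 1.22 ± 0.0299 to 3.63 ± 0.0057 FPKM (SD, n = 2, limma adjusted p = 0.00583). Cspg4, at a mean of 0.949 FPKM in siZBP1 cells, passed the filter only through its siScr values. Anpep, a surface peptidase and the most abundant mural marker, was at 180.1 ± 4.14 and 176 ± 6.7 FPKM and was not called. Of 8 marrow stromal markers tested, 3 were called lower and 1 higher. Cxcl12, the chemokine of marrow stroma, was at 68.4 and 54.6 FPKM in siScr cells and at 8.06 and 7.71 FPKM in siZBP1 cells (limma adjusted p = 0.0021), and Kitl, the stem cell factor, fell 1.47-fold. Ly6a, a marker of mouse progenitors and the most abundant of that list, was at 221 ± 47.7 and 158 ± 3.21 FPKM (SD, n = 2, limma adjusted p = 0.0846). Nt5e, the stromal antigen CD73, rose from 4.11 ± 1.94 to 21.0 ± 0.373 FPKM (SD, n = 2, limma adjusted p = 0.00954). The 7 osteoblast markers tested had 6 called lower and 1 higher. The 5 adipocyte markers had 2 and 1, and the 3 endothelial markers 1 and none. Over all genes tested the shares were 14.8% lower and 13.5% higher. The higher calls of the osteoblast and adipocyte markers and the endothelial call were lost with no filter on low values and without a variance trend. The calls in these marker lists also leaned on the number of siZBP1 samples. The part of any of these markers in the members' difference was not tested.

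**Figure D4:**
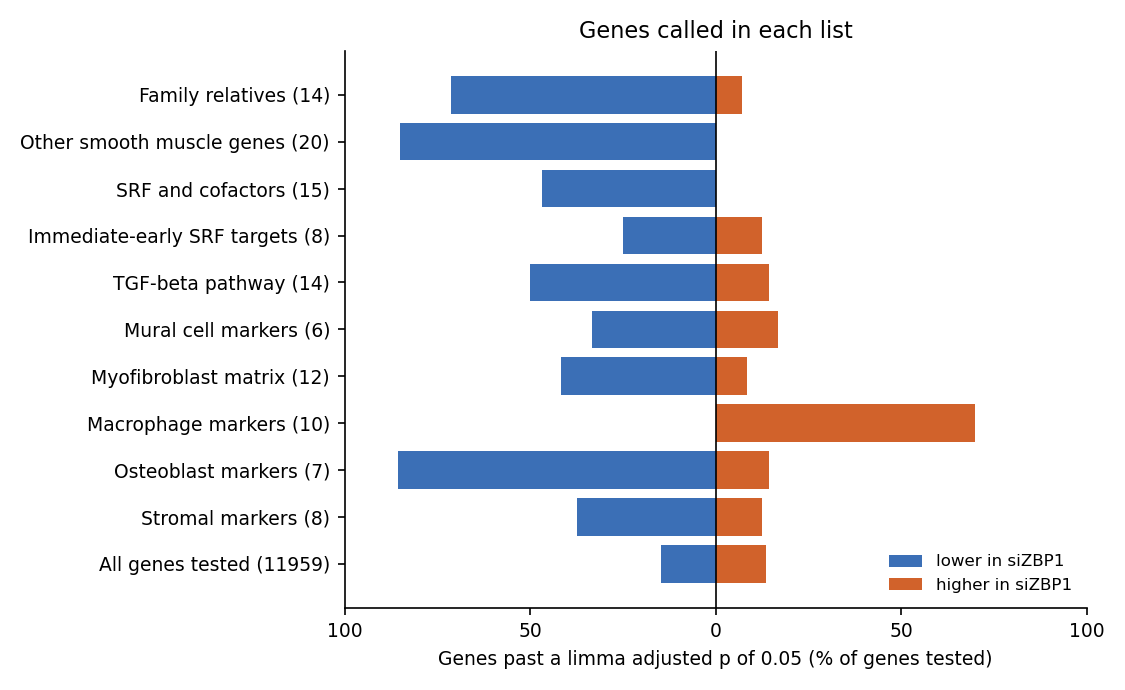
Share of the genes tested in each list that limma called lower (left) and higher (right) in siZBP1 cells, in percent, with the number tested in brackets and all 11959 genes as the lowest bar, at 14.8% lower and 13.5% higher. The list of other smooth muscle genes has 17 of 20 genes lower and none higher, and the macrophage markers have 7 of 10 higher and none lower.

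Genes outside these lists with the most similar values over the 4 samples were found by the root mean square distance of their centred log2(FPKM + 1) values from the mean profile of Cnn1, Actg2, Acta2 and Tagln, among 8810 genes with a mean of at least 5 FPKM. The nearest was Slc13a5, a citrate transporter, at 38.3 and 39.1 FPKM in siScr cells and 4.94 and 4.99 FPKM in siZBP1 cells, at a distance of 0.12 on the log2 scale. It was followed by Cbr2, a carbonyl reductase, Timp3, an inhibitor of matrix metalloproteinases, Sfrp2, a secreted modulator of Wnt signalling, and Ackr4, a scavenging chemokine receptor, at distances of 0.16, 0.21, 0.21 and 0.24. Timp3 was the most abundant of the 5, at 817 ± 120 FPKM in siScr cells and 133.9 ± 8.76 FPKM in siZBP1 cells (SD, n = 2). As the profile of 4 samples is mainly the difference between the groups, these genes are named as a description.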

How the data were processed

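RNA-seq of 4 mBMSC samples was used, 2 siScr and 2 siZBP1. The authors deposited FPKM per gene for each sample, and their group means, which equal the means of the replicates. Per the labels, mm10, TopHat and Cufflinks were used, while the study's methods name HTSeq for the values. The annotation is not given in the sources used here. Replicates were compared by FPKM, and limma 3.58.1 in R 4.3.3 was run with a variance trend on log2(FPKM + 1) for genes with a mean of at least 1 FPKM, adjusted by Benjamini and Hochberg at 0.05. The pseudocount of 1 shrinks changes of low genes, so the members are given by ratios of group means. The exact permutation test of 2 against 2 samples cannot go below p = 0.333 and was not used.

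The members and all lists were chosen with earlier results of these data known. Genes named from each list were the 2 largest changes in each direction past the threshold and the most abundant, and any of the relatives and SRF factors, with exceptions stated. Some genes are not reported here. Des, Ptprc, Rgs5, Pecam1, Cdh5, Eng and Tnni2, given by level to check cell types, were picked after their values were seen. The 2 symbols with repeated rows (4 rows) were kept, each row under its own name. Depth and 50-base words were checked after the data were seen, with depth read from the spacing of low values of genes with 1 transcript of at least 1000 bases. GENCODE M21 and RefSeq promoters share the build of the files. The fit was run on simulated data with independent noise, which does not test how far the calls depend on single samples. Alternatives were another pseudocount, filters, quantile and median scaling, no trend, a replicate block, and each replicate left out. Python 3.11.15, numpy 2.4.6, pandas 2.3.3 and matplotlib 3.10.9 were used.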

Additional observations from a re-analysis of the deposited data

How the results depend on the processing

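All 10 members kept the direction of their log2 ratio under the 8 alternatives run for them. Both siZBP1 values were below both siScr values for all 10, so leaving out a replicate could not turn a sign. The median of the members, -2.44, was -1.89 as a difference of mean log2(FPKM + 1), which shrinks low genes such as Myh11. It was -2.12 after adding 0.1, and -2.53 to -2.29 with each replicate left out. Over these settings the log2 ratio of Myh11 ran from -3.10 to -0.418, and that of Lmod1 from -2.57 to -1.97. An exact CArG box was in 1 of 8 windows and a box with 1 mismatch or fewer in 2.

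With each replicate left out, all genes called lower numbered 48 to 1467 and higher 22 to 1248, relatives 1 to 10 and 0 to 1, other smooth muscle genes lower 3 to 16, and SRF factors lower 0 to 7. The low ends came without a siZBP1 replicate, where the lone sample is assumed to vary like the siScr group. Zbp1 ranged from -2.79 to -2.33, and missed the threshold without siZBP1 replicate 1 (limma log2 fold change -2.55, adjusted p = 0.0618) and without replicate 2 (-2.57, adjusted p = 0.051). With all samples kept, the counts for all genes lay between 1517 and 1841 lower and 1231 and 1812 higher.

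The 39 named list genes were chosen as past the threshold, which made a change of sign unlikely, and none changed sign. Genes that were not called did. Actb was at 0.0339 after quantile normalization. With each replicate left out, the limma log2 fold change of Actb ran from -0.0916 to 0.0114, of Actg1 from -0.0357 to 0.0445, of Mkl1 from -0.105 to 0.0409, of Mkl2 from -0.165 to 0.0485, of Anpep from -0.0722 to 0.0051 and of Ppp1r12b from -0.0518 to 0.168.

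Replicate numbers are shared between the groups, but same-numbered samples did not deviate together (r = -0.06 across 11959 genes, which are not independent). With a replicate block, 1654 genes were lower and 1465 higher, 10 relatives lower and 1 higher, 17 other smooth muscle genes lower and 8 SRF factors lower. The myofibroblast matrix, adipocyte and stromal lists had 2 higher, 2 higher and 5 lower.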
